A study of Homo sapiens with 12 samples.

Results

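The genes described here are 7 matrix metalloproteinases (MMP1, MMP2, MMP3, MMP9, MMP10, MMP13 and MMP14) and 3 tissue inhibitors of metalloproteinases (TIMP1, TIMP2 and TIMP3). They are 10 of the 58037 genes in the counts, and all 10 symbols were matched to a single Ensembl identifier. The set was chosen by gene family with earlier results of these same samples in view, among them the response to MUC1 silencing in both lines. Their DOX values are therefore a description. Where a call from the fit across all genes is mentioned for them, it supports nothing. RNA-seq was performed on DU-145/tet-MUC1shRNA and LNCaP-AI/tet-MUC1shRNA cells, with 3 samples per group and 12 samples in all. All cells carried an shRNA that doxycycline (DOX) induces and that silences MUC1, the gene of a transmembrane mucin. DOX was given at 500 ng/ml over 7 days and compared with vehicle. DU-145 is an androgen-insensitive human prostate cancer line, and LNCaP-AI cells were selected from C4-2B, a derivative of LNCaP, by prolonged growth without androgen. The labels give phenol red-free medium with charcoal-stripped serum for both lines, whereas the study's methods give it for LNCaP-AI cells and medium with heat-inactivated bovine serum for DU-145 cells. The labels name the vehicle and DOX groups of each line as shCTL and shMUC1, and the groups are named here by treatment. No control-shRNA cells given DOX entered the comparison, so effects of the drug and of the shRNA cannot be told apart.

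Matrix metalloproteinases are zinc-dependent endopeptidases that are made as inactive proenzymes and cleave collagens, laminins and other matrix proteins. Collagenases (MMP1, MMP13) cut fibrillar collagen, stromelysins (MMP3, MMP10) have broad substrates and can activate other proenzymes, gelatinases (MMP2, MMP9) degrade denatured collagen and type IV collagen, and MMP14 is anchored in the plasma membrane. TIMPs bind the active site and inhibit the enzymes, and TIMP2 also takes part in the activation of pro-MMP2 by MMP14 at the cell surface. MMPs and TIMPs have been studied in prostate cancer for their part in invasion, and much of the MMP pool of a tumour comes from stromal and immune cells.

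RefSeq promoter windows (250 bases before to 50 after the start, GRCh38.p14) were at hand for 4 of the 10 genes, MMP10, MMP14, TIMP1 and TIMP3. MMP1, MMP2, MMP3, MMP9, MMP13 and TIMP2 had no entry. The windows of MMP14 and TIMP1 are shown because these transcripts differed widely between lines or samples, as described below. Each is printed on the + strand up to the gene start in the annotation, and capitals mark the GC box GGGCGG on either strand.
MMP14 (chr14:22836335-22836559): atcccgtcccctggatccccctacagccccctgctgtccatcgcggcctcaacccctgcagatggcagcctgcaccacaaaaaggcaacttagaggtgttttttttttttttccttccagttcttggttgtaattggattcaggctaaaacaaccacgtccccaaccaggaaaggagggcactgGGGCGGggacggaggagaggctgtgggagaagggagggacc
TIMP1 (chrX:47582186-47582407): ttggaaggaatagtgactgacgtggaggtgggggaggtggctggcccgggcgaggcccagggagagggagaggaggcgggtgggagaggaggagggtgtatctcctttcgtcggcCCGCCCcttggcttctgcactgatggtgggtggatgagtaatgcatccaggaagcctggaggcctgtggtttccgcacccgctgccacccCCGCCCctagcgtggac
Motifs were sought on both strands of the 250 bases before the RefSeq start. MMP14 held 1 GC box, 66 bases before the RefSeq start, and TIMP1 held 2, at 135 and 45 bases. GGGCGG occurred in 42.6% of the 35116 promoters over the same length. The AP-1 motif TGANTCA was found for neither gene but for MMP10, 67 bases before its start, and in 6.6% of all windows. The ETS core GGAA occurred 4 times for each of MMP14 and TIMP1 and in 92.7% of all windows. TATAAA was in the MMP10 window and in 10.7% of all. The GC content was 34.4% for MMP10, 56.8% for MMP14, 64.8% for TIMP1 and 72.4% for TIMP3, with a median of 58.0% over all windows. These matches describe the sequence only.

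Total counts ranged from 10423437 to 13544153 in DU-145 and from 16569613 to 26961777 in LNCaP-AI samples. A count of 3 or fewer was taken as the floor, and this floor and the intervals below cover counting error only. The targeted gene MUC1 had 74, 60 and 59 counts with vehicle and 3 in each DOX sample of DU-145 cells. In LNCaP-AI cells it had 36, 25 and 52 counts with vehicle and 8, 6 and 3 with DOX. The labelled lines were checked by their markers. The summed level of 8 luminal markers was 26.9 to 47.8 CPM (counts scaled to library size, TMM-normalized) in DU-145 and 2300 to 5061 CPM in LNCaP-AI samples. The first principal component of the LNCaP-AI samples, with 82.5% of the variance, did not part the treatments. It put vehicle 1 with DOX 2 and DOX 3, and DOX 1 with vehicle 2 and vehicle 3. No label accounts for this division, and results in LNCaP-AI cells are given with it.

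**Figure D1:**
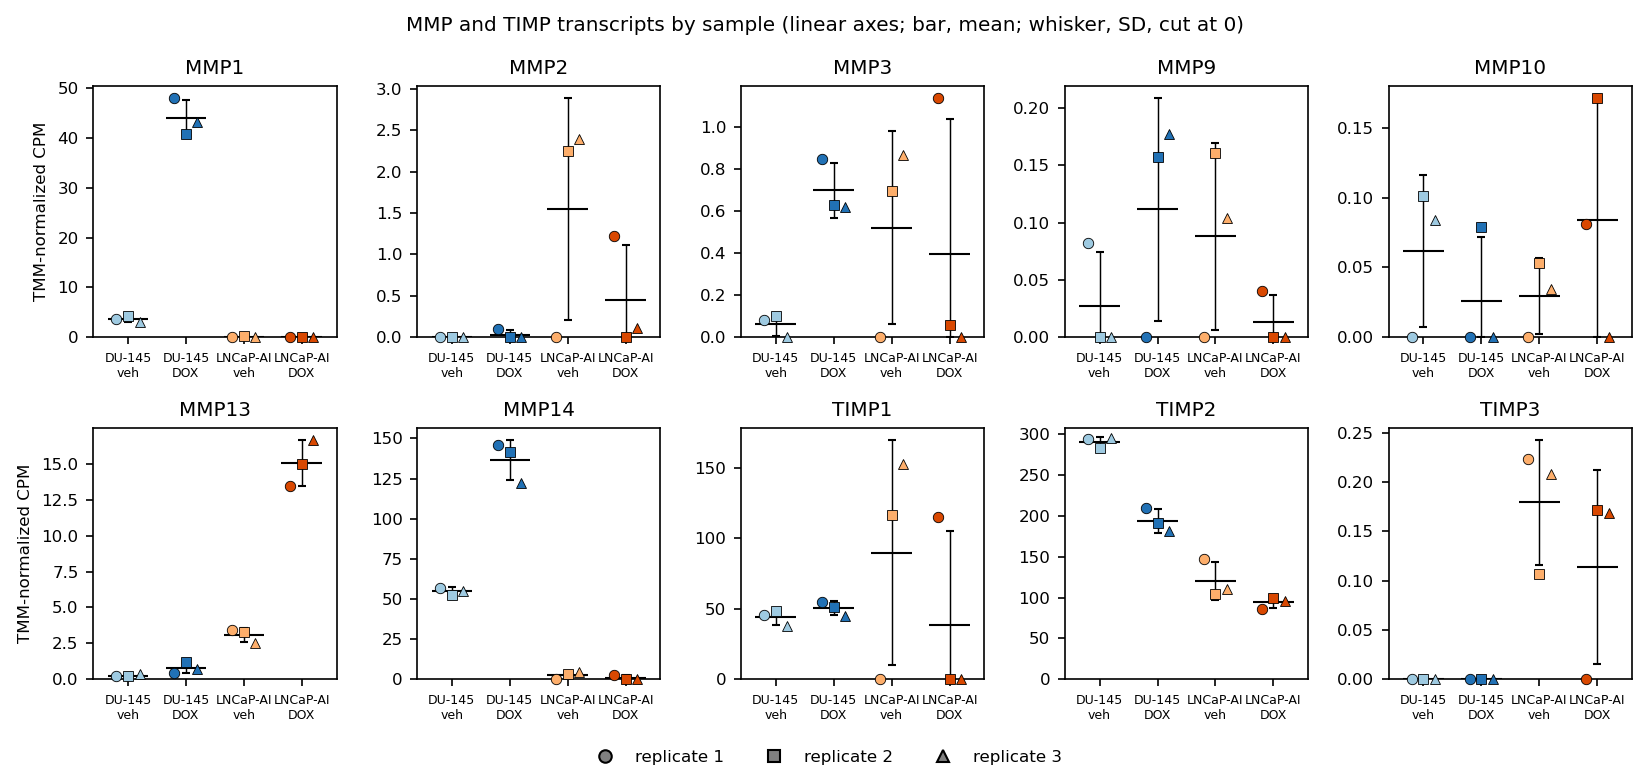
TMM-normalized CPM (linear axes, a separate scale for each gene) of the 10 genes in the 12 samples by line and treatment, with marker shapes for replicates 1 to 3, bars for the mean and whiskers for 1 SD. MMP1 and MMP14 were higher with DOX in DU-145 cells and MMP13 in LNCaP-AI cells, whereas TIMP1 stood at 115 to 153 CPM in 3 LNCaP-AI samples and at 0 to 0.0892 CPM in the other 3.

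In DU-145 cells, DOX treatment was accompanied by more MMP1 and MMP14 mRNA and less TIMP2 mRNA. The collagenase gene MMP1 (chromosome 11, 102789401 to 102798160) had 46, 43 and 37 counts with vehicle and 509, 518 and 488 with DOX. As CPM this was 3.77, 4.35 and 3.10 against 48.0, 40.8 and 43.2, a log2 fold change of 3.57 (SE 0.127). The groups did not overlap, and the lowest DOX sample lay far above the highest vehicle sample. MMP14 (chromosome 14, 22836560 to 22849041), the gene of the membrane-type enzyme that activates pro-MMP2, had 57.2, 52.3 and 55.1 CPM with vehicle and 146, 142 and 122 CPM with DOX. Its log2 fold change was 1.32 (SE 0.0775), and again the groups were apart. In leave-one-out fits these values stayed between 3.44 and 3.67 for MMP1 and between 1.28 and 1.39 for MMP14.

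The inhibitor genes of DU-145 cells went different ways. TIMP2 (chromosome 17, 78852977 to 78925387) had 294, 283 and 294 CPM with vehicle and 209, 191 and 181 CPM with DOX. All DOX samples were below all vehicle samples, with a log2 fold change of -0.58 (SE 0.0699). TIMP1 (chromosome X, 47582408 to 47586789), which inhibits most soluble MMPs, had 45.7, 48.3 and 37.8 CPM with vehicle and 55.2, 51.5 and 45.0 CPM with DOX. Its groups overlapped and the log2 fold change was 0.21 (SE 0.0939), from 0.10 without vehicle 3 to 0.29 without DOX 3. TIMP3, the inhibitor that is retained in the matrix, had 0 counts in all 6 DU-145 samples.

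The other MMPs of DU-145 cells were near the floor. MMP3, a stromelysin gene, had 1, 1 and 0 counts with vehicle and 9, 8 and 7 with DOX, a ratio of 11.8 with a counting interval of 2.93 to 103. The collagenase gene MMP13 had 3, 2 and 4 counts with vehicle and 5, 15 and 8 with DOX, a ratio of 3.06 (1.40 to 7.37). Every DOX sample had more counts than every vehicle sample for both genes, but the intervals hold no spread between cultures. MMP2, MMP9 and MMP10 had at most 2 counts in any DU-145 sample, so no difference in these genes was detectable at this depth.

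Of the 10 genes, 4 reached 10 counts in at least 3 of the 6 DU-145 samples and entered the fit. At an adjusted p under 0.05 (edgeR's quasi-likelihood test, Benjamini-Hochberg adjustment) 3 of these 4 were called, where 51.5% of all 13644 genes tested were. They were 2 of the 26.3% of genes called higher with DOX and 1 of the 25.3% called lower. The set was selected on this contrast, so nothing is read from the counts. MMP14 was not called when all 12 samples shared 1 fit, and TIMP1 was called without vehicle 2, without DOX 3 and under the replicate block. The median log2 fold change over all genes tested was 6e-04 in DU-145 and -0.05 in LNCaP-AI cells.

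**Figure D2:**
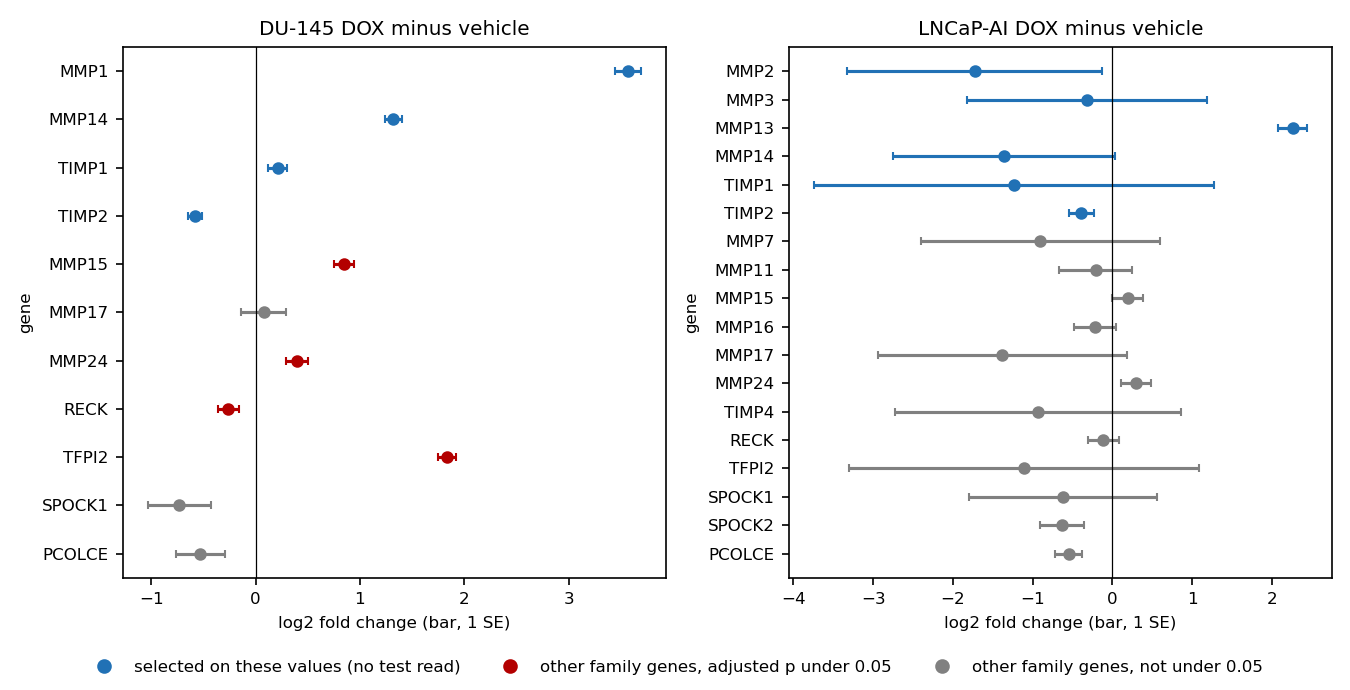
Log2 fold change of DOX against vehicle (horizontal axis, points, with bars of 1 SE) for the genes of the MMP and inhibitor lists that passed the count filter in DU-145 (left) and LNCaP-AI cells (right). Blue points are the genes selected on these values, red points are other family genes with an adjusted p under 0.05 and grey points the rest. Bars are short in DU-145 cells, while MMP2, MMP3, MMP14 and TIMP1 in LNCaP-AI cells have SEs of 1.40 to 2.51.

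In LNCaP-AI cells MMP13 mRNA was higher in every DOX sample than in every vehicle sample. MMP13 (chromosome 11, 102942995 to 102955732), the gene of a collagenase with a preference for type II collagen, had 77, 61 and 73 counts with vehicle and 331, 263 and 296 with DOX. The levels were 3.43, 3.26 and 2.53 CPM against 13.5, 15.01 and 16.7 CPM, a log2 fold change of 2.26 (SE 0.184). The groups were well apart, and so they were on each side of the division. On the log2(CPM + 0.1) scale MMP13 was 2.17 higher in DOX 2 and DOX 3 than in vehicle 1, and 2.19 higher in DOX 1 than in vehicle 2 and vehicle 3. Its log2 fold change was 2.27 without DOX 2 and 2.19 without DOX 3, and in both fits, as under the replicate block, the call was lost. Without DOX 2 or without DOX 3 only 1 gene of the whole transcriptome was called, and under the replicate block 0 of all genes were (2909 at an unadjusted p under 0.05 by edgeR).

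TIMP2 had 147, 104 and 111 CPM in the vehicle and 86.4, 99.2 and 96.3 CPM in the DOX samples of LNCaP-AI cells. The groups did not overlap, but vehicle 2 and DOX 2 were close, and the log2 fold change was -0.39 (SE 0.158). On the log2(CPM + 0.1) scale DOX 2 and DOX 3 differed from vehicle 1 by -0.59, and DOX 1 from vehicle 2 and vehicle 3 by -0.31. TIMP2 is thus the 1 gene of the set that was lower in every DOX sample in both lines. How common this is among all genes was not counted.

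TIMP1, MMP14, MMP2 and MMP3 were parted by the division, and their vehicle and DOX groups overlapped. TIMP1 had 2, 2181 and 4413 counts in vehicle 1, 2 and 3 and 2836, 0 and 0 counts in DOX 1, 2 and 3. Vehicle 2, vehicle 3 and DOX 1 thus held 116.5, 153 and 115 CPM, above every DU-145 sample, while the other 3 samples were at or under the floor. MMP14 had 10, 62 and 125 counts with vehicle and 72, 1 and 2 with DOX, so the same 3 samples were the highest at 2.93 to 4.34 CPM. MMP2, the gelatinase that MMP14 activates, had 0, 42 and 69 counts with vehicle and 30, 0 and 2 with DOX. MMP3 had 0, 13 and 25 counts with vehicle and 28, 1 and 0 with DOX. In bulk RNA, fewer cells with a transcript and less transcript per cell cannot be told apart.

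The fitted log2 fold changes of these genes in LNCaP-AI cells had SEs near or above the values themselves. They were -1.23 (SE 2.51) for TIMP1, -1.36 (SE 1.40) for MMP14, -1.72 (SE 1.60) for MMP2 and -0.32 (SE 1.51) for MMP3. The value for MMP14 moved to -4.91 without DOX 1, where it was called, and that for MMP3 turned to 0.16 without DOX 2 and 0.23 without DOX 3. For vehicle 1 with DOX 2 and DOX 3 the log2(CPM + 0.1) differences were -0.92 for TIMP1, -1.58 for MMP14, 0.54 for MMP2 and 0.33 for MMP3. These were between values at or under the floor, except for MMP14, which had 10 counts in vehicle 1. Within the other side, where the counts were higher, the differences were -0.21, -0.36, -0.87 and 0.50. For none of these 4 genes did the DOX samples all lie on one side of the vehicle samples.

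**Figure D3:**
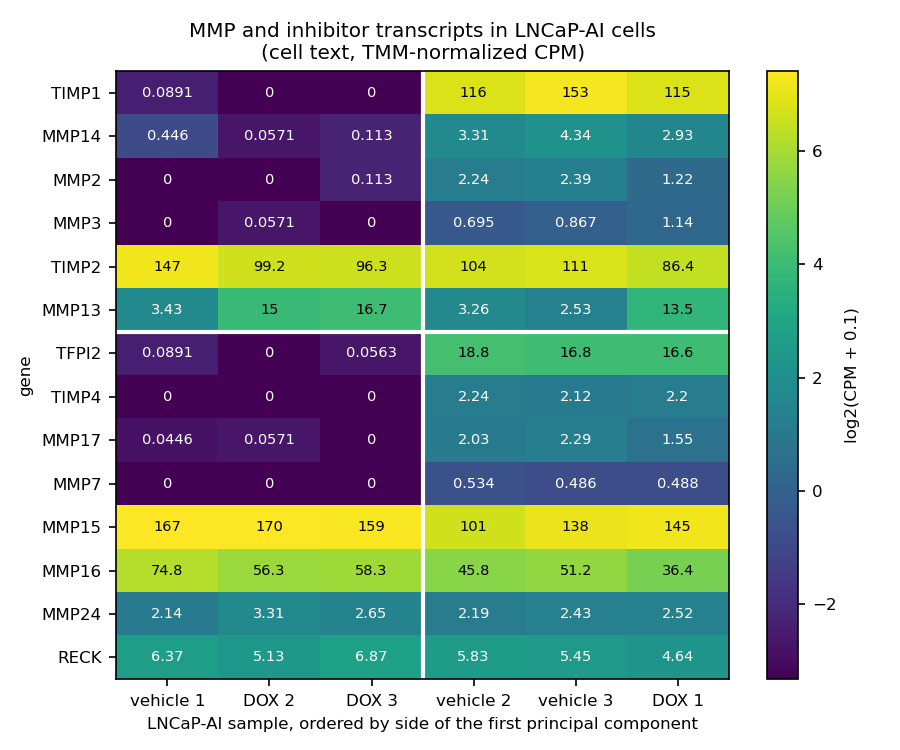
Heat map of log2(CPM + 0.1) for 14 MMP and inhibitor genes (rows) in the 6 LNCaP-AI samples (columns, ordered by side of the first principal component, white line between the sides), with the CPM printed in each cell. Of the genes above the horizontal line, TIMP1, MMP14, MMP2 and MMP3 are high in vehicle 2, vehicle 3 and DOX 1, and MMP13 is high in the 3 DOX samples on both sides. Below it, TFPI2, TIMP4, MMP17 and MMP7 are high in vehicle 2, vehicle 3 and DOX 1.

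Other genes of the family, and some markers of cell types, moved with the same division. TIMP4, a further TIMP, had 42 to 61 counts in vehicle 2, vehicle 3 and DOX 1 and 0 in the other 3, and MMP7, or matrilysin, had 10 to 14 against 0. TFPI2, a protease inhibitor of the matrix, had 352 to 484 counts against 0 to 2, and MMP17, a membrane-anchored MMP, had 38 to 66 against 0 to 1. By contrast MMP15 and MMP16, other membrane-type MMPs, were measured in all 6 samples and were lower in vehicle 2, vehicle 3 and DOX 1. MMP15 was at 101 to 145 CPM there against 159 to 170 CPM in the others, and MMP16 at 36.4 to 51.2 against 56.3 to 74.8 CPM. The sum of 8 markers of DU-145-type cells was 957, 965 and 846 CPM in vehicle 2, vehicle 3 and DOX 1 and 133 to 149 CPM in the others, against 3282 to 3844 CPM in DU-145 samples. Of these 8 markers, 7 were higher in each of these 3 samples than in each of the others, and VIM overlapped. Among the 7, KRT5 did not mark DU-145 cells here. It had 0 counts in the DU-145 samples, except 6 in DOX 2, and 38.1 to 49.8 CPM in these 3 LNCaP-AI samples. The sum of 8 luminal markers was 2407, 2300 and 3750 CPM against 3546 to 5061 CPM, with 2 of 8 lower in each of the 3 samples and 6 overlapping. TIMP4 and MMP2 had at most 2 counts in any DU-145 sample. The 10 stromal fibroblast markers summed to 31.2 to 38.2 CPM on that side and 23.0 to 26.7 CPM on the other. FAP, at 8.87 to 10.1 against 0 to 0.0571 CPM, made up most of the difference between the sides. Of the 10 markers 2 were higher, 2 lower and 6 overlapping. COL1A1 was at 16.5 to 22.9 and 18.1 to 20.5 CPM. The 10 macrophage and neutrophil markers summed to 4.15 to 4.65 CPM and 0.94 to 2.00 CPM, with 3 higher, 7 overlapping and S100A8 and ELANE at 0 in all samples. The sides were taken from the first principal component of these same samples. How common such parting is among all genes was not counted, so the marker counts are not read as a result. The part of other cells in these results was not tested.

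SYN1, a synapsin gene, overlaps TIMP1 on the opposite strand. It had 121, 214 and 112 counts in vehicle 2, vehicle 3 and DOX 1, 0 to 2 in the other LNCaP-AI samples and 0 to 4 in DU-145 samples. The libraries were stranded, but the strand setting of the counting is not given in the sources used here, so reads of the 2 genes may not be fully separated. TIMP1 had 2181 to 4413 counts in the same 3 samples. MMP1, MMP3 and MMP10 overlap the pseudogene WTAPP1, which had at most 2 counts in any sample.

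The other 4 members were near the floor in LNCaP-AI cells. MMP1 had 0, 4 and 2 counts with vehicle and 3, 0 and 0 with DOX, a ratio of 0.585 with a counting interval of 0.0946 to 2.74. TIMP3 had 5, 2 and 6 against 0, 3 and 3, a ratio of 0.540 (0.168 to 1.52). MMP9 and MMP10 had at most 3 counts in any sample, and no difference was detectable for them. In all, 6 of the 10 genes entered the fit of LNCaP-AI cells, and 1 of them was called, with 12.7% of all 16030 genes called. It was among the 7.22% called higher, and none of the 6 was among the 5.52% called lower.

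The level without DOX was compared between the lines, a contrast on which the set was not chosen. MMP14 and TIMP2 were higher in vehicle-treated DU-145 than LNCaP-AI cells, and TIMP1 did not pass the test. MMP1 and MMP13 passed the count filter through 1 line alone, where they were high, and are given as values without a p. MMP1 was at 3.74 ± 0.622 CPM (SD, n = 3) in DU-145 cells and at 0 to 4 counts in LNCaP-AI samples. MMP14 was at 54.8 ± 2.46 CPM against 2.70 ± 2.02 CPM (SD, n = 3), a log2 difference of 4.37 (SE 0.614, adjusted p = 0.000663 by edgeR's quasi-likelihood test). TIMP2 was at 290.3 ± 6.39 against 120.4 ± 23.2 CPM, a log2 difference of 1.31 (SE 0.142, adjusted p = 0.000198, edgeR). MMP13 was at 9 counts summed over 3 DU-145 samples and at 3.08 ± 0.477 CPM in LNCaP-AI cells. For these 4 genes all samples of one line lay above all samples of the other. The share of all genes parted in this way was not counted, so nothing is read from it.

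For TIMP1 the lines gave 43.95 ± 5.46 and 89.9 ± 79.9 CPM (SD, n = 3), a log2 difference of -0.996 (SE 1.32, adjusted p = 0.529, edgeR). The DU-145 samples lay between LNCaP-AI vehicle 1, at 0.0892 CPM, and vehicle 2 and 3. Without vehicle 1 the log2 difference was -1.66 and passed the test (adjusted p = 1.47e-11, edgeR). Thus 4 of the 5 members tested were called, with 65.1% of all 15628 genes called, 3 higher (30.2% of all genes) and 1 lower in DU-145 cells (35% of all genes). Since MMP1 and MMP13 entered as they did, the count itself is no result.

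Other MMPs and inhibitors also differed between vehicle-treated lines. MMP15 was lower in DU-145 cells by a log2 difference of -2.83 (SE 0.201, adjusted p = 3.21e-05, edgeR). MMP16 had 1, 1 and 0 counts in DU-145 and 1677, 857 and 1475 in LNCaP-AI samples, and it passed the filter through LNCaP-AI cells alone. MMP24 was higher in DU-145 cells by 3.14 (SE 0.165, adjusted p = 1.06e-05, edgeR), although MMP24OS overlaps it on the other strand. RECK, a membrane-anchored MMP inhibitor, was higher by 2.32 (SE 0.141, adjusted p = 1.85e-05, edgeR). SPOCK2, a testican proteoglycan, had 9, 6 and 2 counts in DU-145 and 70, 31 and 71 in LNCaP-AI samples. It also passed the filter through LNCaP-AI cells alone and is given without a p.

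**Figure D4:**
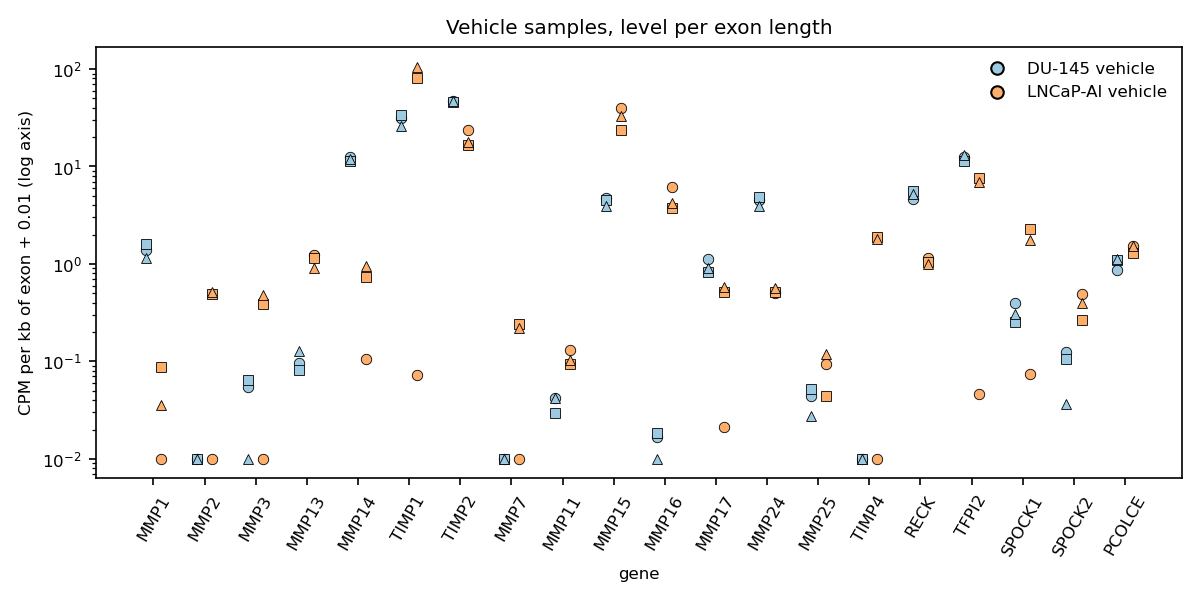
Level per exon length (CPM per kb of exon + 0.01, log axis) of MMP and inhibitor genes in the vehicle samples of both lines, with circles, squares and triangles for replicates 1, 2 and 3. MMP14 is 11.3 to 12.4 CPM per kb in DU-145 cells and 0.0964 to 0.938 in LNCaP-AI cells, MMP15 and MMP16 are higher in LNCaP-AI cells, and TIMP1 of LNCaP-AI vehicle 1 lies far below the others.

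Levels of different genes were set side by side per kb of exon. In vehicle-treated DU-145 cells the order was TIMP2 (46.8 ± 1.03 CPM per kb, SD, n = 3), TIMP1 (30.4 ± 3.77), MMP14 (11.9 ± 0.532) and MMP1 (1.37 ± 0.227), with no overlap between neighbours. With DOX, TIMP1 was at 31.1 to 38.2, TIMP2 at 29.2 to 33.7, MMP14 at 26.5 to 31.5 and MMP1 at 14.9 to 17.5 CPM per kb. TIMP1, TIMP2 and MMP14 then overlapped with their neighbours in this order, and MMP1 stayed below them. In LNCaP-AI cells TIMP2 was at 13.9 to 23.7 CPM per kb in all 6 samples. TIMP1 was above it in vehicle 2, vehicle 3 and DOX 1, at 79.8 to 105.9, and at 0 to 0.0617 in the others. MMP13 was at 1.09 ± 0.169 CPM per kb with vehicle and 5.31 ± 0.566 with DOX, above MMP14 in every LNCaP-AI DOX sample.

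The DOX responses of the lines were also set against each other in 1 fit of all 12 samples. The set was selected on the contrasts behind this fit, so its values are a description as well. Of the 7 members fitted, only MMP1 was called, with 9.18% of all 16800 genes called, and it entered through DU-145 cells alone. Its difference, LNCaP-AI minus DU-145, was -4.29 (SE 1.17) on the log2 scale and rests on 0 to 4 counts per LNCaP-AI sample. The call was lost without any single DU-145 sample and without vehicle 2, vehicle 3, DOX 2 or DOX 3 of LNCaP-AI cells, with values from -3.26 to -4.45. Without LNCaP-AI vehicle 1 or DOX 1 it stayed, at -4.81 and -7.14, and MMP14 was called too, with TIMP2 in the first of these fits and TIMP1 in the second. MMP13, which was under the count filter in DU-145 cells, differed by 0.72 (SE 0.478) between the lines and was not called.

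Among other MMPs and inhibitors, 4 of the 7 genes tested in DU-145 cells passed the test. As 51.5% of all genes did so (26.3% higher, 25.3% lower), neither this count nor those of the lists below are read as a result about a list. TFPI2 rose from 30.0 ± 2.22 to 106.9 ± 10.1 CPM (SD, n = 3), a log2 fold change of 1.83 (SE 0.0881, adjusted p = 8.14e-12, edgeR). MMP15 rose by 0.85 (SE 0.0986, adjusted p = 8.03e-07, edgeR) and MMP24 by 0.40 (SE 0.101, adjusted p = 0.00288, edgeR), and RECK fell by 0.26 on the log2 scale (SE 0.0978, adjusted p = 0.0320, edgeR), a call that DESeq2 did not make (adjusted p = 0.0657). In LNCaP-AI cells 12.7% of all genes tested were called (7.22% higher, 5.52% lower), and list counts there are likewise not read as a result. Of 12 other MMPs and inhibitors tested there, 0 passed edgeR's test and 0 that of DESeq2, and 1 had an unadjusted p under 0.05 by edgeR (PCOLCE, an enhancer of procollagen processing).

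The plasminogen system, whose protease plasmin can activate pro-MMPs, had 3 genes higher and 2 lower of 9 tested in DU-145 cells, a share near the 51.5% of all genes. PLAUR, the urokinase receptor, rose by a log2 fold change of 1.59 (adjusted p = 1.03e-11, edgeR). PLAT, the tissue plasminogen activator, changed by -1.85, from 11 to 15 counts to 1 to 5. It passed the filter through the vehicle samples alone and is given without a p. SERPINE2, a serpin that inhibits plasminogen activators, changed by -0.65 (adjusted p = 8.14e-05, edgeR). In LNCaP-AI cells 0 of 10 passed edgeR's test, and 0 had an unadjusted p under 0.05 by edgeR. DESeq2 called 0 and gave no adjusted p for PLAU, PLAT and ANXA2. PLAUR had 320, 618 and 387 counts in vehicle 2, vehicle 3 and DOX 1 and 7 to 11 in the others. Of 8 membrane serine proteases and inhibitors, the 4 tested in DU-145 cells were all higher with DOX, with 26.3% of all genes called higher. SPINT1, an inhibitor of matriptase, led at 1.45 (adjusted p = 2.75e-11, edgeR). The others named by the rule were SERPINB5 at 1.29 and SPINT2 at 0.92. In LNCaP-AI cells 3 of 8 were higher, TMPRSS2 by 1.89 (adjusted p = 0.0123, edgeR), PRSS8 by 0.84 and SPINT2 by 0.40, with 7.22% of all genes called higher. DESeq2 called 4 of the 8.

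Genes for activation and cell-surface partners of MMPs had 5 higher and 5 lower of 15 in DU-145 cells, where 26.3% and 25.3% of all genes were. The proprotein convertase PCSK5 changed by -1.21, ITGB3, the integrin beta-3 chain, by -1.15 and CLDN1, a tight junction claudin, by 1.10 on the log2 scale. PCSK5 had 28, 13 and 24 counts with vehicle and 14, 7 and 7 with DOX, so only its vehicle samples all reached 10. In LNCaP-AI cells only LRP1, an endocytic receptor for MMPs and TIMPs, passed of 14, at 0.79 (adjusted p = 0.0318, edgeR). Among ADAM proteases, 3 were higher and 2 lower of 9 in DU-145 cells (ADAM23 -1.50, ADAM12 0.89, ADAM15 0.42), and among ADAMTS proteases 3 and 2 of 7 (ADAMTS7 -1.77, ADAMTS6 1.21, ADAMTS9 1.20). ADAMTS7 passed the filter through the vehicle samples alone, with 25, 14 and 16 counts against 5, 7 and 4 with DOX. ADAMTS6 had 7, 10 and 13 counts with vehicle and 20, 29 and 22 with DOX. ADAMTS9 had 14, 11 and 7 against 27, 28 and 20. For both, only the DOX samples all reached 10 counts. In LNCaP-AI cells 0 of 9 ADAM and 0 of 9 ADAMTS genes passed edgeR's test, with 2 and 1 at an unadjusted p under 0.05, and DESeq2 called 2 and 1.

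Of 15 AP-1 and ETS factors, which bind motifs present in many MMP promoters, 14 were tested in DU-145 cells, where 11 were higher and 2 lower with DOX, with 26.3% and 25.3% of all genes called. The list's median log2 fold change was 0.41. FOSB had 1, 1 and 2 counts with vehicle and 38, 53 and 39 with DOX. It passed the filter through the DOX samples alone and is given without a p. ETV5 rose by 0.73, and the 2 lower genes included RUNX2, a RUNT factor placed in this list, at -1.71. RUNX2 had 18, 19 and 35 counts with vehicle and 6, 6 and 10 with DOX. Only its vehicle samples all reached 10 counts, so it passed the filter through them and is given without a p. In LNCaP-AI cells only JUND passed of 15, at 0.31 (adjusted p = 0.0479, edgeR). Of the matrix substrates, 6 were higher and 4 lower of 16 in DU-145 cells, with 51.5% of all genes called. LAMB3, a laminin chain, rose by 1.11, and FN1, or fibronectin, changed by -0.58. In LNCaP-AI cells LAMC1 and COL4A5 passed of 21, at 0.76 and 0.93.

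The genes most like MMP14 and TIMP2, which among the 10 genes were the MMP and the TIMP with the highest mean CPM, were sought by Pearson's r of log2 CPM over the 12 samples, among 9618 genes. For MMP14 they were TAGLN2, RBBP8 and SVIL, with r of 0.997, 0.997 and 0.996. TIMP2 was followed most closely by NNT, TCF12 and RFLNB, at 0.994, 0.993 and 0.993. The 12 points share the difference between the lines and, for MMP14, the division of the LNCaP-AI samples.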

How the data were processed

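Total RNA was sequenced from 12 samples after TruSeq stranded mRNA preparation. The authors deposited raw counts per gene, without normalization. The submitters' processing notes name CASAVA 1.8.2, STAR 2.7.0, DESeq2 1.24.0 and GRCh38.p7, and the read counter and its strand setting are not given in the sources used here. Identifiers were matched to symbols (56948 of 58037), and positions and exon lengths come from GENCODE 44 on GRCh38.

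Groups were taken from the labels. Genes that reached 10 counts in 3 or more samples were fitted with edgeR 4.0.16 (R 4.3.3; TMM, glmQLFit, glmQLFTest) with Benjamini-Hochberg adjustment and a threshold of 0.05. SEs are the fold change divided by the square root of F. CPM values are TMM-normalized. Low genes were compared as a ratio of summed counts with an exact 95% interval. Total counts per sample, from 10423437 to 26961777, set the precision. The deposited labels call the cultures triplicates. If these were not separate cultures, p-values measure a spread that may be technical. No replicate pair agreed within sampling noise.

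The members, lists and tests were chosen with earlier results of these data known. Named genes were all members and, per list and line, up to 3 called genes with the largest absolute log2 fold change. A gene that meets this rule is not reported here. For the vehicle contrast, members and called family genes were named, and others are named where a result turned on them, chosen after their values were seen. Genes like a member needed a mean of 10 CPM. Alternatives were DESeq2 1.42.0, its size factors, upper-quartile normalization, no filter, 1 CPM in 3 samples, all 12 samples in 1 fit, the replicate block, each sample left out and values within each side of the LNCaP-AI division. Replicate numbers did not pair the samples. The steps were tested on simulated data, where 100% of the changed genes were recovered in each of the 3 contrasts, with 6 to 10 false calls. There the changed genes had high counts and large changes, all genes had the same noise, and the LNCaP-AI samples had no division. The simulation thus shows that the steps run correctly. It does not measure power for genes near the floor or false calls in the LNCaP-AI samples.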

Additional observations from a re-analysis of the deposited data

Results flagged for a closer look

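The fitted difference in the DOX response of MMP1 between the lines was -4.29 on the log2 scale (LNCaP-AI minus DU-145). It is listed because its interaction term was past the threshold. The set was selected on the contrasts behind it, and MMP1 was at 0 to 4 counts in every LNCaP-AI sample and entered the fit through DU-145 cells alone, so nothing is drawn from the test.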

How the results depend on the processing

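Genes called for DOX in DU-145 cells numbered 7033 and, with all 12 samples in 1 fit, 4083. In LNCaP-AI cells 2043 were called, and 3517 by DESeq2 and 3933 with all 12 samples in 1 fit. The replicate block left 0 (2909 at an unadjusted p under 0.05 by edgeR), and leaving out 1 sample gave 1 to 3538. Members called there went from 1 to 0 under the replicate block and ranged from 0 to 2 without 1 sample. The difference between the lines was called for 1543 genes, for 884 with no filter, for 52 under the replicate block and for 737 to 3471 without 1 sample. Members called for it fell to 0 under the replicate block and ranged from 0 to 3. Same-numbered vehicle and DOX samples did not deviate together (correlations of 0.13, -0.09 and 0.08 in DU-145 and -0.94, -0.81 and -0.84 in LNCaP-AI cells), so a call lost under the block is no measure of a weaker effect. MMP3 in LNCaP-AI cells (-0.32) ranged from -0.86 to 0.23 without 1 sample, with 0.16 without DOX 2 and 0.23 without DOX 3, and turned to 0.33 and 0.50 within the sides, and MMP2 (-1.72) to 0.54 within the side of vehicle 1. These values rest on few counts. For the contrast of the vehicle-treated lines, 58 of 59 recomputed log2 differences of single members kept their direction and side of the threshold. The exception was TIMP1 without LNCaP-AI vehicle 1. MMP1 or MMP13 were not tested where leaving out a sample took them under the filter. Causes were otherwise not tested.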
